A study of Mus musculus with 22 samples.

Results

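The transcripts described are those of 7 mouse genes of complement and epithelial defence, C3, Cfb, Cd55, Cd59a, Serping1, Lcn2 and Slpi, in cells of the collecting duct line mpkCCD. They were chosen by gene symbol from a deposited expression table of 54514 entries, and all 7 symbols were found in it. Of the 7, 5 had a mean of at least 1 TPM (an abundance corrected for transcript length and scaled to the same total in each library), and Serping1 and Slpi did not. The choice was made with earlier results of these libraries known, so levels and counts of members are a description. The same holds for the gene lists further below.

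mpkCCD is an immortalised line from the mouse cortical collecting duct, here the secondary clone mpkCCDc11-38, which makes aquaporin-2 (Aqp2), a water channel under the control of vasopressin, and is grown on permeable supports. All 10 groups shared a full medium for 4 days and then a serum-free medium, both with 50 nM dexamethasone, a synthetic glucocorticoid. Unsorted wild-type (WT) cells received vehicle (3 libraries) or dDAVP, an agonist of the vasopressin V2 receptor (3 libraries). The GFP reporter cells C1, C11, C43 and C50, each called a clone here, were given dDAVP without exception and then sorted by GFP. Each clone gave 2 libraries of its GFP-negative and 2 of its GFP-positive cells. The labels name 0.1 and 1 nM dDAVP and 24 and 48 hours without tying a dose or time to a library. They do not say which promoter drives GFP, or whether replicates came from separate cultures, so p-values measure only the spread between these libraries. No clone was analysed without dDAVP, and clone identity and sorting cannot be told apart in any comparison of clones with unsorted WT cells, for which no test is given.

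Complement is a cascade of plasma and locally made proteins in which cleaved C3 is deposited on surfaces. Factor B, the product of Cfb, joins deposited C3b to form the convertase of the alternative pathway, which cleaves more C3. Cells protect themselves with membrane proteins: CD55 speeds the decay of convertases and CD59 blocks assembly of the membrane attack complex, while the secreted C1 inhibitor, the product of Serping1, inactivates the first proteases of the classical and lectin pathways. Lipocalin-2 (Lcn2, also NGAL) binds bacterial iron-carrying siderophores and is made by kidney tubule cells, including those of the collecting duct, and Slpi is a secreted inhibitor of leukocyte proteases.

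C3 and Lcn2 were the members whose GFP-negative and GFP-positive libraries did not overlap within any of the 4 clones, in opposite directions. How many of all genes separate in this way was not counted, so this is a description. The sequences before the start sites of C3 and Lcn2 are printed because of this separation. Both are the 250 bases upstream of the gene's start in RefSeq on GRCm38.p6, given 5′ to 3′ on the gene's strand, and capitals mark every match to a searched pattern. C3 lies on the minus strand (chr17:57228137-57228386), and so does Lcn2 (chr2:32387740-32387989). The build that the authors used is not given in the sources used here, so these coordinates belong to RefSeq alone.
C3: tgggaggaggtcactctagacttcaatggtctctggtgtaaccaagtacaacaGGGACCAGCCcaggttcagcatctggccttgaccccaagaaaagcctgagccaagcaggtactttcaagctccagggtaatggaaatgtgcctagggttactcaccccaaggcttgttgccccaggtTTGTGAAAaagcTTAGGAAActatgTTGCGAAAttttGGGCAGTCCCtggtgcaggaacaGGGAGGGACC
Lcn2: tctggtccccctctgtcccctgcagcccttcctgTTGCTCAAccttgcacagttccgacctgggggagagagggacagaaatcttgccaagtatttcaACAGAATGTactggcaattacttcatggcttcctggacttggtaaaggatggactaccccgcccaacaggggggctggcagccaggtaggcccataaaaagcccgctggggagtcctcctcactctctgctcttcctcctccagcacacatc
Searched on both strands were 7 patterns, NF-kB (GGGA and CC with any 4 bases between), C/EBP (TTNNGNAA), AP-1 (TGANTCA), CRE (TGACGTCA), STAT (TTCNNNGAA), a paired glucocorticoid receptor element (ACANNNTGT) and the TATA box (TATAAA). The C3 sequence held 3 NF-kB matches, ending 188, 24 and 1 bases before the start, and 3 C/EBP matches, ending 63, 51 and 38 bases before it. The Lcn2 sequence held 1 C/EBP match, TTGCTCAA, ending 209 bases before the start, and 1 glucocorticoid receptor match, ACAGAATGT, ending 144 bases before it. No match of one pattern overlapped that of another in these stretches. Among 32851 promoters of this length, 17.6% held an NF-kB match, 36.8% a C/EBP match and 5.84% a glucocorticoid receptor match. RefSeq promoters were matched for 5 of the 7 genes, of which Cd55 held 1 NF-kB match, Slpi 3 C/EBP matches and Cd59a none of any pattern. A match is a string of letters, not evidence of binding.

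The libraries had 12308 to 14386 entries at 1 TPM or more, and their sequencing depth is unknown because TPM keeps none. Aqp2 was 69.1 TPM with vehicle and 2868 TPM with dDAVP in WT cells, and the GFP transcript averaged 11.8 TPM in GFP-negative and 1307 TPM in GFP-positive libraries. Of 10 principal-cell markers 7 had a mean of at least 1 TPM, while Scnn1b, Kcnj1 and Elf5 were under 1 TPM in all libraries. None of 6 intercalated cell, 5 fibroblast or 3 endothelial markers had a mean of at least 1 TPM, and of 4 proximal tubule markers Lrp2 did (mean 7.81 TPM). Of 7 leukocyte markers Cd68 and Csf1r did, and the summed list was 15.9 to 21.5 TPM in WT vehicle, 13.8 to 20.3 in WT dDAVP, 17.4 to 31.6 in GFP-negative and 11.7 to 21.8 in GFP-positive libraries, with Ptprc at most 1.87 (mean 0.564), Itgam at most 0.04 and Adgre1 at most 0.16 TPM. Ribosomal-protein transcripts made up 3.64% to 7.81% of TPM, highest in GFP-negative replicate 1 of C50. A gap in the number of detected entries split the libraries into 10 with 17206 to 20288 and 12 with 23174 to 31393. WT vehicle, WT dDAVP and both fractions each had libraries in both sets. Fewer cells that make a transcript and less of it per cell cannot be told apart in these bulk samples.

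Lcn2 was the most abundant of the 7 genes, with a mean of 1858 TPM over the 22 libraries and rank 41 among all entries. C3 followed with 111 TPM and Cd59a with 55.4 TPM, ranks 1831 and 3586. Cd55 had a mean of 7.22 TPM and Cfb of 2.04 TPM. The protease inhibitors were the lowest of the 7: Slpi reached at most 1.65 TPM and Serping1 at most 0.41 TPM.

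C3 was higher in dDAVP-treated than in vehicle-treated WT cells and higher in GFP-positive than in GFP-negative cells of every clone. In WT cells it was 37.2, 30.9 and 29.6 TPM with vehicle and 106, 159 and 107 TPM with dDAVP. The 3 treated libraries all lay above the 3 untreated ones, at a mean of 123.9 ± 30.1 TPM (SD, n = 3) against 32.6 ± 4.08 TPM (SD, n = 3), a ratio of 3.81. On the log2(TPM + 1) scale, used for every change below, C3 rose by 1.88 (limma adjusted p 0.00167, standard error 0.17). Its 95% interval was 1.48 to 2.28, and the median over all genes tested was -0.16. C3 was the 1 member of 5 tested that was called at an adjusted p under 0.05, where 8.88% of all 13494 genes tested were called (2.37% higher, 6.51% lower).

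**Figure D1:**
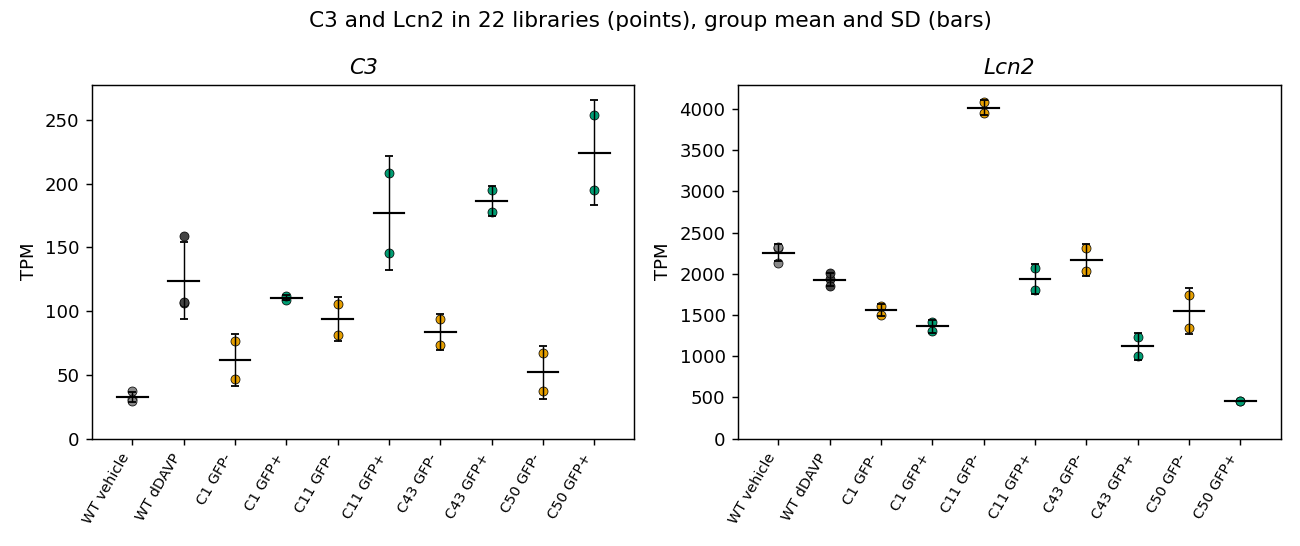
TPM of C3 and Lcn2 in each of the 22 libraries (points) with the group mean and SD (bars), by group, grey for WT, orange for GFP-negative and green for GFP-positive cells. C3 lies between 29.6 and 37.2 TPM with vehicle and reaches 254 TPM in C50 GFP-positive cells, while Lcn2 lies lowest there, at 453 and 460.02 TPM.

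In the reporter clones C3 was 47.0 and 76.3 TPM in GFP-negative and 109 and 112 TPM in GFP-positive cells of C1. In C11 it was 81.5 and 105.9 TPM in GFP-negative and 145 and 209 TPM in GFP-positive cells. C43 had 73.5 and 93.8 TPM against 178 and 195 TPM, and C50 had 37.5 and 66.8 TPM against 254 and 195 TPM. All 8 GFP-positive libraries (109 to 254 TPM, median 186) therefore lay above all 8 GFP-negative ones (37.5 to 106 TPM, median 74.9), whichever the clone. With the clone as a covariate C3 rose by 1.26 (limma adjusted p 0.000126, standard error 0.19), against a median of -0.06 over all 13113 genes tested. Of 5 members tested 3 were called in this comparison (C3, Cd55 and Lcn2), where 35.3% of all genes were (12.1% higher, 23.2% lower).

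For C1, C11, C43 and C50 in turn, the ratios of C3 means between fractions were 1.79, 1.89, 2.23 and 4.30. Taken clone by clone, with a spread shared over the 8 groups (standard error 0.30), the differences were 0.87, 0.90, 1.16 and 2.13, and limma called C43 (adjusted p 0.0224) and C50 (adjusted p 0.000453). The C43 call was lost without any 1 of its 4 libraries (adjusted p up to 0.165), and that in C50 passed in 20 of 20 alternatives. C1 and C11 were short of the threshold (adjusted p 0.117 and 0.0975), though both passed with median-ratio scaling (adjusted p 0.0325 and 0.0218). Leaving out 1 library gave differences of 0.53 to 1.21 in C1 and 0.64 to 1.16 in C11. A test of whether the fraction difference itself varied between clones gave an adjusted p of 0.354 for C3. Without GFP-negative replicate 2 of C50 that p was 0.0185, in a fit where the calls over all genes went from 114 to 5038. In order of group means, C50 GFP-positive cells came first at 224 ± 41.2 TPM (SD, n = 2), with its lower library just above the next group (195.32 against 194.84 TPM) and a range overlapping those of C11 GFP-positive cells. C43 and C11 GFP-positive, WT dDAVP and C1 GFP-positive cells followed as neighbours with overlapping ranges, at 186, 177, 123.9 and 110.3 TPM. The 4 GFP-negative groups came after them, from 93.7 TPM in C11 to 52.1 TPM in C50, and WT vehicle cells were last, at 32.6 TPM and below every other library. The spread of the group means was 6.89-fold.

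Cfb, whose product pairs with C3b, was low throughout and did not follow C3. It lay between 0.63 and 4.40 TPM in the 22 libraries, with 1.68 to 2.31 TPM in WT vehicle and 1.25 to 1.83 TPM in WT dDAVP cells. GFP-negative libraries had 0.63 to 3.71 TPM and GFP-positive ones 1.47 to 4.40 TPM, so the fractions overlapped. Differences of -0.27 with dDAVP and 0.29 between fractions did not pass limma's test (adjusted p 0.434 and 0.285), nor did any single clone. The group mean was highest in C1 GFP-positive cells, 4.15 ± 0.361 TPM (SD, n = 2), the 1 group set apart from its neighbour by the library ranges. Across the 22 libraries, which share groups and clones, the log2 levels of Cfb and C3 correlated with a Pearson r of 0.09. Its neighbour C2 had a mean of 0.829 TPM, and the gene model Gm20547, which overlaps Cfb and C2 in GENCODE M21 and could share their reads, was at most 0.06 TPM.

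Among the regulators, Cd55 differed chiefly by clone. In C43 it was 12.9 and 14.5 TPM in GFP-negative and 30.7 and 22.1 TPM in GFP-positive cells, and in C1 it was 7.94 and 8.49 against 12.1 and 12.5 TPM. C11 had 0.31 and 0.82 TPM in GFP-negative and 0.72 and 0.53 TPM in GFP-positive cells, and C50 had 0.87 and 0.59 against 2.13 and 1.65 TPM. The libraries of C43 and C1 thus all lay above those of C50 and C11, in both fractions. Group means spanned 24.2-fold over the GFP-negative and 42.3-fold over the GFP-positive fractions, with WT cells in between. The lowest means, those of C11, are under 1 TPM and rest on 2 libraries each, so the size of these spans is imprecise. With both fractions averaged, the clones differed (moderated F-test in limma, adjusted p 7.6e-08), as 31.6% of genes tested did.

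Within clones Cd55 was higher in GFP-positive cells, by 0.56 (limma adjusted p 0.00421, standard error 0.13). It was higher in 7 of 8 pairs of same-numbered libraries, and the fractions did not overlap in C1, C43 and C50. Single-clone differences of 0.89 in C43 and 0.74 in C50 passed the test (adjusted p 0.0214 and 0.0319), while 0.53 in C1 and 0.07 in C11 did not (adjusted p 0.218 and 0.917). The C43 call was lost with a pseudocount of 0.1 and without either GFP-negative library or GFP-positive replicate 1 of C43 (adjusted p up to 0.143). That in C50 was lost without GFP-negative replicate 2 or either GFP-positive library of C50 (adjusted p up to 0.168). The call over the clones was lost without C43, at 0.45 (adjusted p 0.0537), and with clone means as replicates, at 0.56 (adjusted p 0.072). In WT cells Cd55 was 5.79, 3.74 and 2.79 TPM with vehicle and 4.56, 6.28 and 6.72 TPM with dDAVP. These groups overlapped, and the difference of 0.45 (95% interval -0.13 to 1.03) had a limma adjusted p of 0.254. The neighbouring gene copy Cd55b, which could share reads, was at most 0.11 TPM.

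Cd59a, the anchor-bound inhibitor of the membrane attack complex, had the narrowest range of the 5 tested members, 41.6 to 70.9 TPM over all libraries and 1.59-fold over the group means. WT cells had 46.0, 47.9 and 51.1 TPM with vehicle and 46.4, 46.7 and 46.9 TPM with dDAVP, with the treated values inside the untreated range. The difference was -0.05 (limma adjusted p 0.68). Between fractions it was 0.08 (adjusted p 0.463), with 4 of 8 pairs higher and 4 lower. C1 had 41.6 and 46.9 TPM in GFP-negative and 55.6 and 53.2 TPM in GFP-positive cells, and C50 had 60.8 and 56.6 against 48.5 and 55.3 TPM. C43 had 62.2 and 60.4 against 70.3 and 70.9 TPM, and C11 had 66.3 and 59.9 against 65.35 and 59.45 TPM. Limma called none of C1, C11, C43 and C50 alone (adjusted p 0.165, 0.974, 0.273 and 0.272). Its test of whether the fraction difference varied between clones gave an adjusted p of 0.388. The clones differed with both fractions averaged (moderated F-test in limma, adjusted p 0.00713), as 31.6% of genes tested did. In GFP-negative cells the clone means spanned 1.43-fold, from 63.1 TPM in C11 to 44.3 TPM in C1. In GFP-positive cells they spanned 1.36-fold, from 70.6 TPM in C43 to 51.9 TPM in C50. Its copy Cd59b had a mean of 0.330 TPM.

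Serping1, the gene of C1 inhibitor, was listed at 0 in all 6 WT libraries and in 14 of the 22. Its highest values, 0.41 and 0.21 TPM, were in C11 GFP-positive cells, and C11 GFP-negative cells had 0.19 and 0.21 TPM. It was too low for the test at a mean of 1 TPM. With every gene above 0 included, its difference between fractions was 0.02 (limma adjusted p 0.895).

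**Figure D2:**
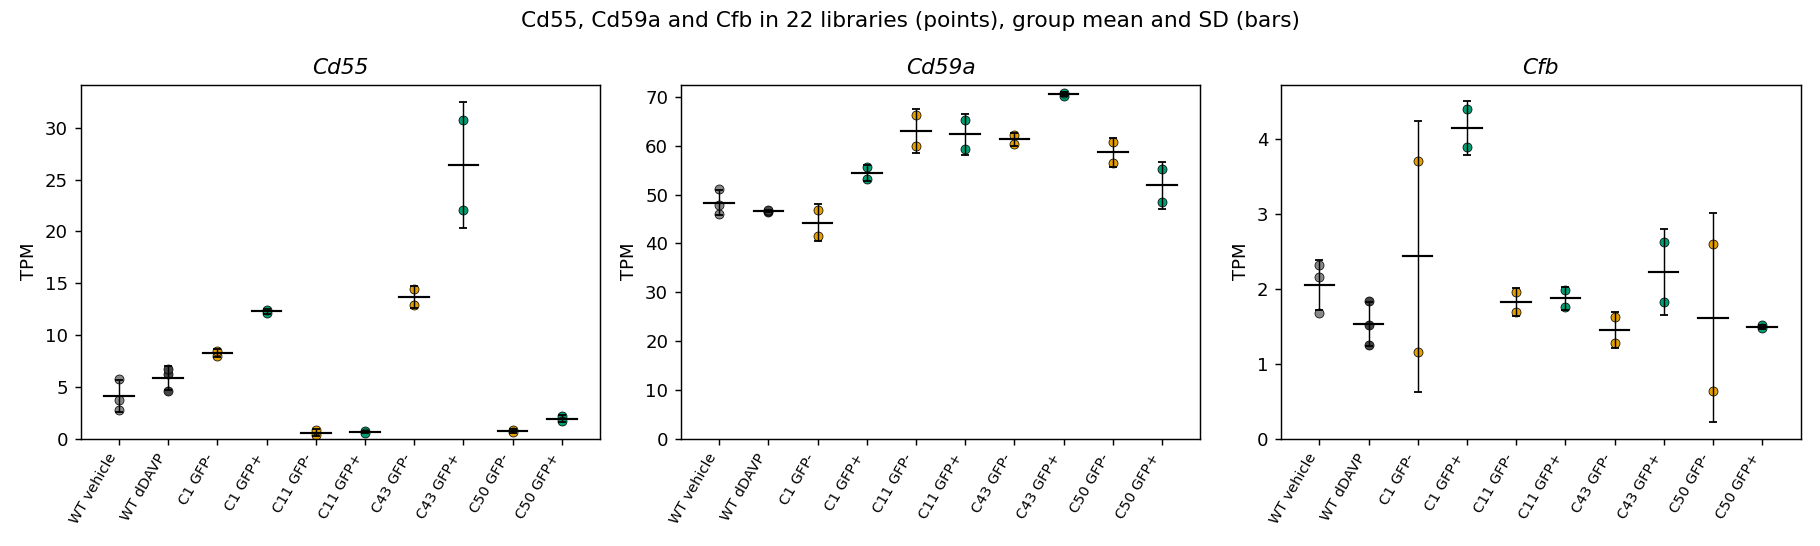
TPM of Cd55, Cd59a and Cfb in each library (points) with the group mean and SD (bars), by group, in the same colours, each panel with its own axis. Cd55 is under 1 TPM in all C11 libraries and reaches 30.7 TPM in C43 GFP-positive cells, while Cd59a stays between 41.6 and 70.9 TPM.

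Lcn2, the siderophore-binding lipocalin, was lower in GFP-positive than in GFP-negative cells of each clone, to a degree that varied with the clone. C50 GFP-negative cells had 1741 and 1346 TPM and GFP-positive cells 453 and 460.02 TPM. In C11 the values were 4081 and 3949 against 2069.6 and 1807 TPM, and in C43 they were 2307 and 2027 against 999.6 and 1237 TPM. C1 had 1609 and 1505 TPM in GFP-negative and 1302 and 1418 TPM in GFP-positive cells. The fractions did not overlap in any clone, so Lcn2 was necessarily lower in 8 of 8 pairs. The GFP-positive libraries of C11 nevertheless lay above the GFP-negative libraries of C1 and C50. With the clone as a covariate Lcn2 fell by 0.99 (limma adjusted p 0.000219, standard error 0.16).

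GFP-positive means were 0.874 (C1), 0.483 (C11), 0.516 (C43) and 0.296 (C50) of the GFP-negative means. The corresponding log2 differences were -0.20, -1.05, -0.96 and -1.74 (standard error 0.13), with limma adjusted p-values of 0.495, 0.000725, 0.000724 and 7.64e-06. Lcn2 was the 1 member of 5 tested for which the fraction difference varied between clones (adjusted p 0.0141), where 0.869% of genes did. That call was lost with median-ratio scaling of the libraries (adjusted p 0.0801) and in 6 of 16 fits that left out 1 library, each of the 4 from C1 and either GFP-positive library of C50 (0.056 to 0.0863). The clones also differed in Lcn2 with both fractions averaged (moderated F-test in limma, adjusted p 1.58e-06), as 31.6% of genes tested did. In C1 no member was called (7.22% of genes were), in C11 1 was, Lcn2 (7.94%), and in C43 and C50 C3, Cd55 and Lcn2 were (16.3% and 26.6%).

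In WT cells Lcn2 was 2307, 2322 and 2135 TPM with vehicle and 1934, 1846 and 2009.6 TPM with dDAVP. The treated libraries all lay below the untreated ones, at 0.856 of their mean. The difference of -0.22 (95% interval -0.38 to -0.07) was -0.07 relative to the median of all genes and did not pass limma's test (adjusted p 0.0714). It was -0.05 with median-ratio scaling (adjusted p 0.748), and it passed with quantile normalization, at -0.32 (adjusted p 0.0439), and when the count of detected entries entered the model, at -0.23 (adjusted p 0.0434). C11 GFP-negative cells had the highest group mean, 4015 ± 93.1 TPM (SD, n = 2), apart from all other groups. WT vehicle, C43 GFP-negative, C11 GFP-positive and WT dDAVP cells formed a run of overlapping neighbours from 2255 to 1929.98 TPM. C1 GFP-negative, C50 GFP-negative and C1 GFP-positive cells overlapped between 1557 and 1360.1 TPM, and C43 GFP-positive (1118 TPM) and C50 GFP-positive cells (457 TPM) were each set apart below them. The group means spanned 8.79-fold.

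Slpi, the antiprotease, was above 0 in 9 of 22 libraries. C43 GFP-positive cells had 0.33 and 1.65 TPM, the second of these being the 1 value above 1 TPM. Slpi was too low for the test at a mean of 1 TPM. With every gene above 0 included, its differences were 0.01 with dDAVP and 0.12 between fractions (limma adjusted p 0.957 and 0.82).

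**Figure D3:**
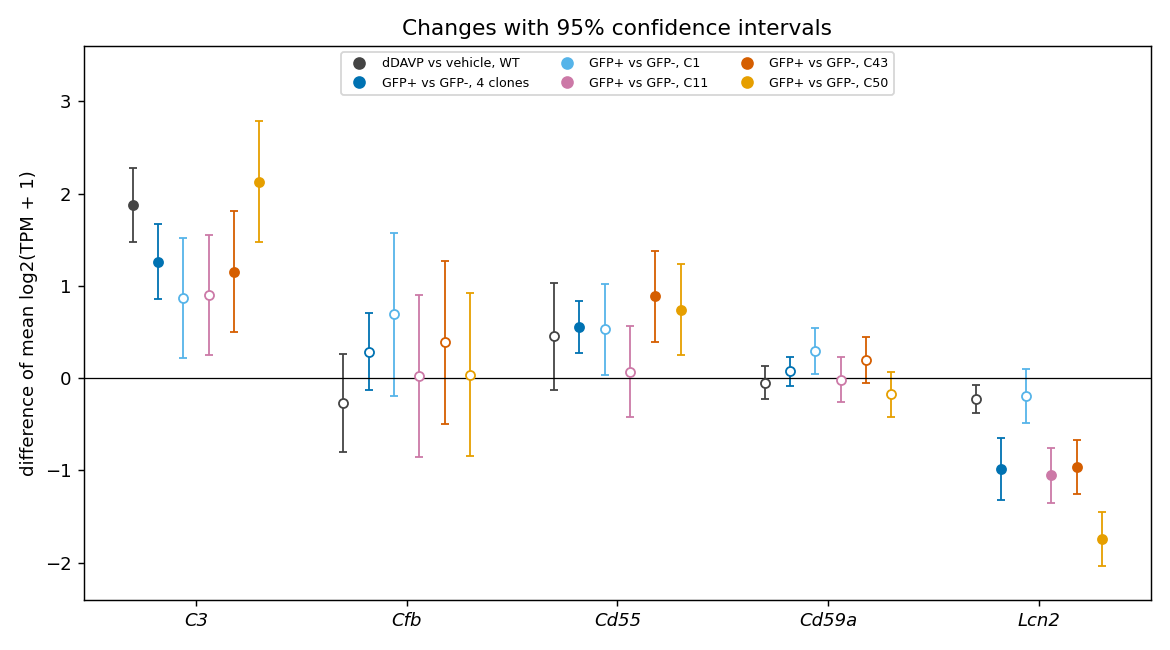
Difference in log2(TPM + 1) with its 95% interval for the 5 tested genes, for dDAVP against vehicle in WT cells and for GFP-positive against GFP-negative cells over the clones and in each clone. Filled points had a limma adjusted p under 0.05. The points of C3 are positive throughout, from 0.87 to 2.13, and those of Lcn2 negative, from -0.20 to -1.74.

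The fraction differences of C3, Cd55 and Lcn2 were also computed within the sets of libraries with fewer and with more detected entries. The set with more holds no GFP-negative library of C1 and the set with fewer none of C11, so each difference rests on the other 3 clones. Among those with more, C3 differed by 1.09 and Lcn2 by -1.21 (limma adjusted p 0.00932 and 0.00227), and Cd55 by 0.64 (adjusted p 0.104). Among those with fewer, the differences were 1.47, -0.90 and 0.60 (adjusted p 0.107, 0.172 and 0.189), none past the threshold. In the 4 WT libraries with more detected entries C3 differed by 1.91 with dDAVP (adjusted p 0.0348) and Lcn2 by -0.27 (adjusted p 0.25). The remaining 2 WT libraries are 1 per group and allow no test.

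Genes whose levels followed each tested member most closely were ranked by Pearson r of log2(TPM + 1) over the 22 libraries, which share clones and treatments, among genes with a mean of at least 5 TPM. For C3 these were Tspan33, a tetraspanin (r 0.952), Galnt3, which starts mucin-type O-glycosylation (0.947), and Chp1, a calcium-binding cofactor of sodium-proton exchangers (0.945). For Cd55 they were the dipeptidyl peptidase Dpp4 (0.936), Ntpcr (0.923) and the sulfotransferase Sult1d1 (0.907). For Lcn2 they were Rfc4 (0.880), a subunit of the clamp loader of DNA replication, Thap7 (0.875) and Gnb1l (0.875). The closest values were lower for Cd59a (Skp1, 0.852) and Cfb (Stt3b, 0.786). Among the members themselves, C3 and Lcn2 had an r of -0.50 and C3 and Cd55 of 0.09. C3 and Aqp2 had an r of 0.81, and Lcn2 and Aqp2 of -0.50.

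The rest of the complement system was mostly at low TPM. Of 22 other genes of initiation and the convertases, 3 had enough TPM to be tested, C4a, Masp2 and Cfp, and none was called in either comparison (8.88% and 35.3% of all genes were). Their medians were -0.39 with dDAVP (-0.27 with median-ratio scaling) and -0.12 between fractions, beside -0.16 and -0.06 for all genes. Factor D (Cfd), the protease that cleaves factor B, had a mean of 0.0155 TPM and C4b of 0.182 TPM. Of 7 genes of the terminal pathway C8g alone was tested. It was called higher in GFP-positive cells, 10.6 against 6.64 TPM, a difference of 0.59 (limma adjusted p 0.000508). In WT cells it was 7.81 TPM with vehicle and 5.75 TPM with dDAVP, a difference of -0.34 that did not pass (adjusted p 0.396). Of 10 receptor genes only Calr was tested. It was not called in either comparison as deposited (-0.07 and 0.24), but was called higher in GFP-positive cells with median-ratio scaling (0.32), without GFP-negative replicate 1 of C50 (0.12) and without clone C50 (0.14). The anaphylatoxin receptors C3ar1 and C5ar1 were at most 0.40 TPM each.

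Of 16 other complement regulators, 4 were tested: Cr1l, Clu, Susd4 and C4bp. Clu, the secreted chaperone clusterin, which binds terminal complement complexes, fell between fractions from 247 ± 74.6 to 118 ± 34.6 TPM (SD, n = 8 each), a difference of -1.05 (limma adjusted p 9.44e-06). In WT cells Clu had 181 TPM with vehicle and 201 TPM with dDAVP, a difference of 0.15 that did not pass (adjusted p 0.161). Cr1l, the mouse Crry protein, which limits convertases on cell membranes, rose from 85.2 ± 11.7 to 101.6 ± 11.2 TPM (SD, n = 8 each), a difference of 0.26 (adjusted p 0.00187). Susd4 fell in both comparisons, by 0.33 between fractions (adjusted p 0.00997) and by 0.51 with dDAVP (adjusted p 0.03). The dDAVP call of Susd4 was lost with median-ratio scaling (-0.35, adjusted p 0.127), with quantile normalization (-0.30, adjusted p 0.2) and without vehicle replicate 2 or 3 or dDAVP replicate 1 or 3. Cfi, encoding factor I, the protease that inactivates C3b, had a mean of 0.0573 TPM.

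Among genes of the epithelial antimicrobial and antiprotease list other than Lcn2 and Slpi, which also belong to it, 8 of 13 tested genes were higher in GFP-positive cells and none lower, where 12.1% of all genes tested were higher and 23.2% lower, with a median of 0.52 beside -0.06 for all genes. The count was 8 with median-ratio scaling, with quantile normalization, without clone C50 and without GFP-negative replicate 1 of C50. Lcn2, which was called lower, is outside this count. The list was chosen with earlier results of these data known, so its counts are a description. Apart from Lcn2 (-0.99), the differences with the largest size in the list were those of the membrane mucins Muc4 (1.32), Muc20 (1.30) and Muc1 (1.12) and of Wfdc15b (0.92), a whey acidic protein like Slpi (limma adjusted p 0.00017, 9.45e-07, 3.82e-06 and 0.000451). Muc1 rose from 587 ± 220 to 1212 ± 223 TPM and Muc20 from 205.5 ± 91.4 to 486 ± 171 TPM (SD, n = 8 each). With dDAVP, 4 of 14 tested genes of the list other than the members were higher and none lower, where 2.37% of all genes were higher and 6.51% lower, with a median of 0.38 beside -0.16 for all genes. These were Ltf, encoding the iron-binding lactoferrin (1.75), Muc4 (1.26), Pglyrp1, encoding a peptidoglycan-binding protein (1.08), and Wfdc2, another whey acidic protein (0.49). Ltf and Pglyrp1 had vehicle means of 0.5 and 0.983 TPM and passed the filter on low TPM through the dDAVP libraries, where they are high, so their place in the count is no support for it. Left out 1 at a time, every WT library ended the call of Pglyrp1. That of Ltf was lost without vehicle replicate 1 or 3 or dDAVP replicate 1 or 3, and that of Muc4 without vehicle replicate 2 or 3. Wfdc2 was the most abundant of the 4, at 2932 ± 345 TPM with vehicle and 4111 ± 195 TPM with dDAVP (SD, n = 3 each, limma adjusted p 0.0259). Its call was lost with quantile normalization (0.37, adjusted p 0.0517) and without vehicle replicate 3 or dDAVP replicate 1 or 3. The count of 4 was 6 with median-ratio scaling and 4 with quantile normalization, and it fell to 0 without vehicle replicate 3, to 1 without dDAVP replicate 1 or 3, to 2 without vehicle replicate 1 or 2, and was 3 without dDAVP replicate 2.

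**Figure D4:**
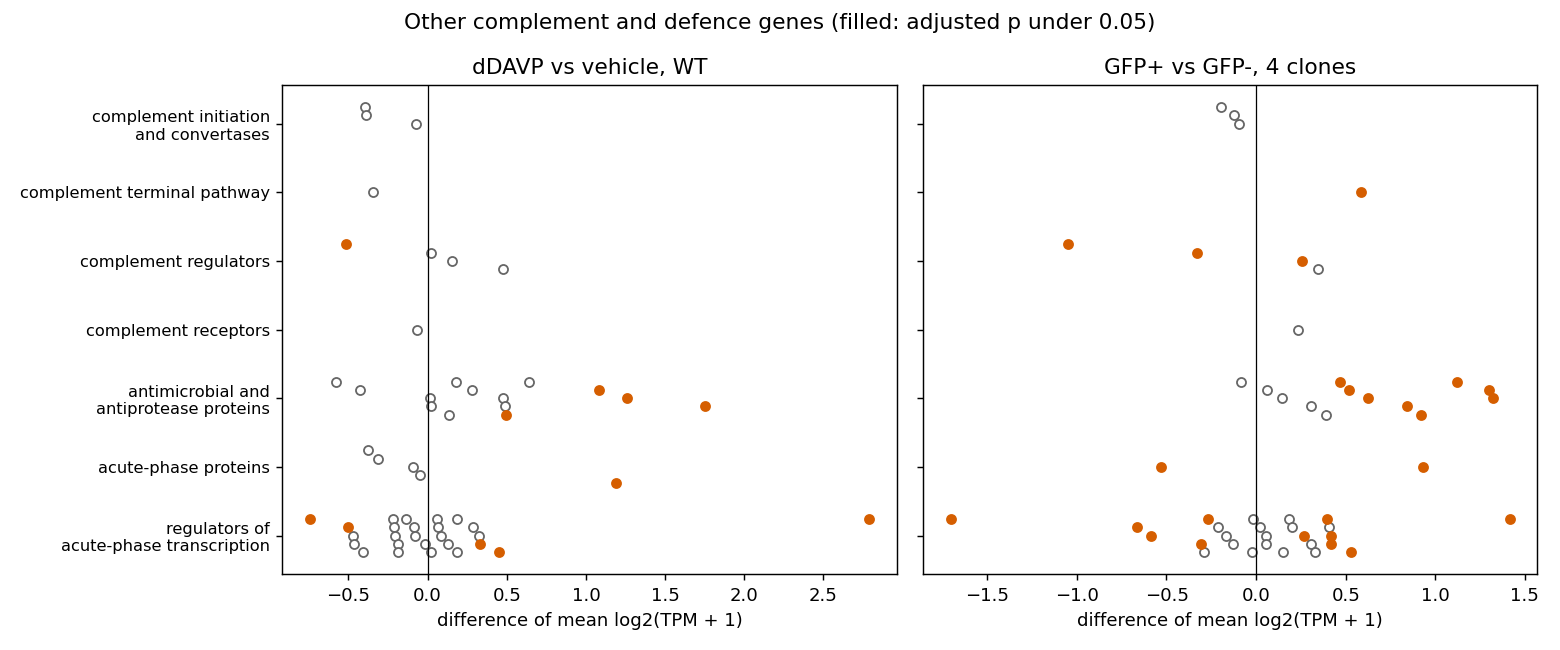
Difference in log2(TPM + 1) of each tested gene of the complement, defence and acute-phase lists other than the members, for dDAVP against vehicle and for GFP-positive against GFP-negative cells, each panel with its own horizontal range. Filled orange points had a limma adjusted p under 0.05. In the antimicrobial and antiprotease list the called genes lie to the right in both panels, 4 of 14 and 8 of 13.

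Of 25 other acute-phase genes, 5 were tested with dDAVP and 2 between fractions. Lbp, the lipopolysaccharide-binding protein, rose from 26.7 ± 1.78 to 62.3 ± 6.40 TPM with dDAVP (SD, n = 3 each, limma adjusted p 0.00124) and from 58.6 ± 28.0 to 107 ± 35.1 TPM between fractions (SD, n = 8 each, adjusted p 4.2e-07). Ifitm3, an antiviral membrane protein, fell by 0.53 between fractions (adjusted p 0.0121), a call lost with median-ratio scaling (-0.45, adjusted p 0.0792) and without clone C50 (-0.37, adjusted p 0.059). The classical acute-phase genes Saa1, Saa2, Saa3 and Hp were under 1 TPM in every library.

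A further list held transcription factors, cytokine receptors, adaptors and inhibitors that act on acute-phase transcription, of which 26 of 27 were tested. With dDAVP 3 were higher and 2 lower (median -0.05), and between fractions 6 were higher and 5 lower (median 0.06). The called share was 19.2% beside 8.88% of all genes with dDAVP, and 42.3% beside 35.3% between fractions. Without 1 WT library the 3 higher and 2 lower became 1 to 3 higher and 0 or 1 lower. Between fractions the counts were 9 higher and 4 lower with median-ratio scaling or quantile normalization (median 0.14 with each), and 5 higher and 7 lower without clone C50. Cebpd, a transcription factor of the C/EBP family, rose from 3.41 ± 0.514 to 29.4 ± 1.39 TPM with dDAVP (SD, n = 3 each), a difference of 2.79 (limma adjusted p 8.03e-05). A link between Cebpd and the C/EBP matches printed above was not tested. Between fractions Cebpd rose by 1.42, from 23.5 ± 13.0 to 61.4 ± 27.3 TPM (SD, n = 8 each, adjusted p 5.12e-08). The next largest called rises between fractions were those of Irf1 (0.53), Traf3ip2 (0.42) and Il1rap (0.42), with limma adjusted p-values of 0.000444, 0.0116 and 0.036. The call of Il1rap was lost without clone C50 (0.30, adjusted p 0.12). Cebpb (0.45) and the NF-kB inhibitor gene Nfkbia (0.33) were also higher with dDAVP (adjusted p 0.0205 and 0.0208). The call of Cebpb was lost without vehicle replicate 2 or dDAVP replicate 1 or 3, and that of Nfkbia without any WT library but dDAVP replicate 2 and with quantile normalization. Relb, a subunit of non-canonical NF-kB, fell between fractions from 20.9 ± 6.11 to 5.69 ± 1.75 TPM (SD, n = 8 each), a difference of -1.70 (adjusted p 8.86e-10), and its partner Nfkb2 fell by 0.59 (adjusted p 0.00662). Socs3, which dampens cytokine signalling, fell in both comparisons, by 0.74 with dDAVP (adjusted p 0.0438) and by 0.66 between fractions (adjusted p 0.00533). The dDAVP call of Socs3 was lost with median-ratio scaling (-0.60, adjusted p 0.0847) and with quantile normalization (-0.56, adjusted p 0.11), with no gene of this list called lower under either, and without any 1 WT library. Also lower were the receptor gene Il17ra with dDAVP (-0.50, adjusted p 0.0473) and the receptor genes Ifngr1 and Tnfrsf1a between fractions (-0.31 and -0.27, adjusted p 0.00172 and 0.0181). Il17ra and Tnfrsf1a were not called under either scaling, nor was Il17ra without any WT library but dDAVP replicate 2. Cebpd and Lbp were called higher with dDAVP in all 6 fits that left out 1 WT library.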

How the data were processed

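RNA of 22 mpkCCD samples was made into cDNA with the SMART-Seq HT kit and into libraries with Nextera XT, per the labels' protocols. The authors deposited TPM per gene and library. The submitters' processing notes name STAR and RSEM; their versions and settings, the build and the annotation are not given in the sources used here. TPM keep no depth, so precision rests on replicate spread alone.

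The 980 lines sharing 79 symbols were summed per symbol. Groups and replicate numbers came from the sample titles. limma 3.58.1 in R 4.3.3 modelled log2(TPM + 1) where a gene averaged 1 TPM or more over the fit, with a mean-variance trend, two-sided, Benjamini-Hochberg adjusted over all genes tested, threshold 0.05. The dDAVP comparison used 6 WT libraries; the GFP comparison used 16 clone libraries with clone as covariate. Single clones, differences between clones and the interaction came from a group means model. Scripts were tested on simulated data. RefSeq promoters were searched by pattern.

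The members and gene lists were chosen with earlier results of these data known. Named genes are the members, up to 4 called genes per list, direction and comparison with the largest change, list genes at low TPM, and the 3 genes most like each tested member. Serping1 and Slpi, at 0 in 14 and 13 libraries, were left out of that ranking. Genes that make up a count of 5 or fewer were named after their values were seen. The promoter patterns and the recounts of lists were chosen after seeing the data. Alternatives covered pseudocount, filter, scaling, moderation, covariates, replicate block and left-out libraries.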

Additional observations from a re-analysis of the deposited data

Results flagged for a closer look

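Lcn2 was singled out because its difference between GFP-positive and GFP-negative cells varied between the reporter clones (limma interaction test, adjusted p 0.0141). The log2 differences, for C1, C11, C43 and C50 in turn, were -0.20, -1.05, -0.96 and -1.74, and the fractions did not overlap in any clone. The interaction was past the threshold in 13 of 20 alternatives, with adjusted p-values from 0.000718 to 0.0863. No group holds 4 or more libraries, so single libraries within a group were not screened.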

How the results depend on the processing

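No called result changed direction under any alternative run. Genes called with dDAVP, 1198, became 442 with every gene above 0, 691 with no trend, 2694 with detected genes as a covariate, 789 in a fit of all 22 libraries and 101 in the libraries with more detected genes. Between fractions, 4626 became 2406 with clone means and 250 in the libraries with fewer detected genes, and the interaction count of 114 became 234 with quantile normalization. Median-ratio scaling gave 575 higher and 327 lower calls with dDAVP (320 and 878 as deposited) and 2391 and 2292 between fractions (1582 and 3044), and brought the median dDAVP change from -0.16 to -0.00122. Quantile normalization gave 438 and 372, and 2560 and 2513.

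Leaving out single libraries gave 314 to 2038 calls with dDAVP and 4170 to 6043 between fractions. It gave 377 to 2094 in C1, 318 to 2331 in C11, 858 to 3891 in C43 and 1793 to 6820 in C50, 42 to 5038 for the interaction and 2857 to 7947 between clones. The lowest dDAVP count came without vehicle replicate 3 and the highest interaction count without GFP-negative replicate 2 of C50.

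C3 passed the threshold in 17 of 17 alternatives with dDAVP (1.69 to 2.05) and in 31 of 32 between fractions (0.97 to 1.47), the exception being the libraries with fewer detected genes (1.47, adjusted p 0.107). Lcn2 passed in 31 of 32 between fractions, failing in the same libraries (-0.90, adjusted p 0.172). Lcn2 with dDAVP passed in 2 of 17, quantile normalization (-0.32, adjusted p 0.0439) and the covariate (-0.23, adjusted p 0.0434). Cd55 passed in 28 of 32 between fractions and not with clone means (0.56, adjusted p 0.072), without C43 (0.45, adjusted p 0.0537) or in the libraries with more (0.64, adjusted p 0.104) or fewer detected genes (0.60, adjusted p 0.189). The cause was not tested. Single-clone C3 differences in C1 and C11 each passed in 4 of 20.

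Same-numbered libraries did not deviate together in every pair (correlations of -0.208, -0.0254 and -0.109 in WT and 0.0544, 0.0151, 0.203 and 0.0825 in the clones), so the replicate block is an alternative only. With the replicate block, 122 genes were called with dDAVP and 4259 between fractions. C3 had adjusted p-values of 0.0196 and 0.000894 there, Lcn2 0.246 and 0.00233, and Cd55 between fractions 0.0151, so no call of a member changed. The dDAVP calls in the antimicrobial and antiprotease list went from 4 to 0 with the block, and of the 11 list genes called with dDAVP only Lbp and Cebpd stayed called. Depth is unknown and could not be weighed for the genes near 1 TPM.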

Other observations

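Among complement and defence genes at about 1 TPM, C2, the classical-pathway counterpart of factor B, was at 0.2 to 1.53 TPM in all 22 libraries, with a mean of 0.829 TPM. The antimicrobial peptide gene S100a7a averaged 1.88 TPM in WT vehicle, 1.01 in WT dDAVP, 0.864 in GFP-negative and 0.674 in GFP-positive libraries. Hpx, encoding the haem-binding protein hemopexin, averaged 1.41, 0.883, 0.851 and 0.871 TPM in the same order. Ptx3, a long pentraxin of complement recognition, averaged 1.17, 1.08, 0.645 and 0.873 TPM. S100a7a, Hpx and Ptx3 passed the filter in WT cells only, with dDAVP differences of -0.58, -0.38 and -0.09 (limma adjusted p 0.293, 0.397 and 0.851). Defb1, a beta-defensin of kidney epithelium, was at most 0.71 TPM, and Camp, the cathelicidin, at most 0.24 TPM. Slc22a17, a reported receptor of lipocalin-2, had a mean of 0.07 TPM, and the better expressed Lrp2, encoding megalin, which takes up filtered lipocalin-2 in the proximal tubule, of 7.81 TPM.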
